A study of Mus musculus with 12 samples.

Results

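The genes described here are 10 members of the glycolytic pathway, chosen by name among the 22416 genes counted: the glucose transporter Slc2a1, the hexokinases Hk1 and Hk2, and Aldoa, Tpi1, Gapdh, Pgk1, Eno1, Pkm and Ldha. Their values are ribosome footprints, the mRNA fragments left under ribosomes after nuclease digestion, counted per gene in single epidermal cells of mouse back skin. All animals were female C57BL/6 mice with no engineered allele named in the labels, young at 56 to 60 days or old at 22 to 26 months, and all received cycloheximide, which stalls ribosomes, by the tail vein. Skin was dissociated with trypsin and live single cells were sorted into plates, 1 cell to a well. The 10 plates without a surface gate came from 3 young animals, called P57, P59 and P60 after their postnatal days, and 3 old ones, called P662, P722 and P758. Another plate of P758 tested other nucleases, and another held Sca-1-negative cells of both ages that cannot be told apart by well. There is no mRNA measurement of the same cells among the files used, so a level here depends on how much mRNA was present and on how often it was translated.

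Glycolysis splits glucose into pyruvate in the cytosol, with a net yield of ATP and NADH, and lactate dehydrogenase turns pyruvate into lactate so that NAD+ is restored. Glucose enters through transporters, hexokinase traps it by phosphorylation, aldolase splits the sugar, and the later enzymes harvest its energy. Keratinocytes are known for a high use of glucose, and the hypoxia-inducible factor HIF-1 and MYC are textbook activators of many of these genes.

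The core of the hypoxia response element, ACGTG, was searched on both strands in the 250 bases before each RefSeq start of the members (build GRCm38.p6), because HIF-1 is the best known shared regulator of the pathway. It was present in 7 of the 17 member promoters, belonging to 6 of the 10 genes, and in 16.6% of 32851 promoters of the same window in the genome. The E-box CACGTG, the site of MYC and its partner MAX, contains ACGTG and was present in the window of Ldha alone among the members and in 6.02% of all. The windows below are given for Slc2a1, Hk2 and Aldoa, which the comparisons of classes concern, and for Ldha, which has both motifs. Tpi1, which those comparisons also concern, had no ACGTG in its window. Each is written 5′ to 3′ on the strand of the gene, with the motif in capitals (CACGT is ACGTG read from the other strand). They lie at chr4:119108697-119108725 (plus strand), chr6:82774490-82774518 (minus strand), chr7:126799364-126799392 (minus strand) and chr7:46845745-46845773 (plus strand), in this order.
Slc2a1: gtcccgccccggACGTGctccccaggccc
Hk2: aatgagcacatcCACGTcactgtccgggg
Aldoa: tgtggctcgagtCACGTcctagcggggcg
Ldha: ggcccagcctaCACGTGggttcccgcacg
The genes themselves lie at chr4:119108745-119137330 (Slc2a1), chr6:82725025-82774454 (Hk2), chr7:126795234-126800994 (Aldoa) and chr7:46842274-46855627 (Ldha) in the RefSeq annotation of the same build. The motif begins 36 bases before an annotated start in Slc2a1, 52 in Hk2, 126 in Aldoa and 48 in Ldha. For Aldoa and Ldha that start is an alternative one, and the window lies inside the span of the gene. A match describes letters only, and no match says only that they are not in this window.

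Depth differed widely between animals. Wells of at least 100 counts were kept, 1906 of 1924, and their summed count ran from 5230 in P57, from 13 wells, to 2384294 in P60, from 981 wells. A single count is worth 191 CPM (the count scaled to a total of 1000000) in P57 and 0.419 CPM in P60. P758 had 896688 counts from 627 wells, so that the 3 plates of P60 and the 2 of P758 carry most of the information on rare classes of wells. All libraries drew on the same well indexes, with 383 of 384 found in more than 1 library, and wells that shared an index were no more alike than others (median r 0.169 against 0.165 over 4038 pairs). Wells were clustered without any of the pathway genes, and clusters were named from marker genes of skin cell types. They gave 724 basal-like, 366 spinous-like, 238 upper follicle-like, 100 outer bulge-like and 96 cycling wells, called basal, spinous, upper follicle, outer bulge and cycling from here on. The upper follicle class differed between the deep animals. In P60 it had Krt79 at 11876 CPM, Flg at 0 and Lor at 66.9 CPM, while in P758 it had Krt79 at 6059, Flg at 4657 and Lor at 2796 CPM, so that it also held granular-layer transcripts there.

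The 10 members did not all yield usable counts. Slc2a1, the basal glucose transporter of many cells, had 1134 counts over the kept wells and ranked 405 of 15873 genes with a count. Aldoa, the aldolase that splits fructose bisphosphate, had 1073 counts, and Hk1, the hexokinase bound to mitochondria in most cells, had 894. Triosephosphate isomerase, Tpi1, had 677, the pyruvate kinase gene Pkm 588, lactate dehydrogenase A, Ldha, 478, and the enolase gene Eno1 278. Hk2, the inducible hexokinase, had 99. These totals reflect length as well as level and give no order between genes, since coding lengths were not used here. Gapdh, the glyceraldehyde phosphate dehydrogenase that every cell uses, had 3 counts in 3382018, all in P60, and Pgk1, the phosphoglycerate kinase, had 2. Pgam1, the mutase of the next step and no member, was listed at 0. RefSeq names 3 pseudogenes after Gapdh, 3 after Pgk1, 2 after Pgam1, 3 after Ldha and 2 after Aldoa. None of these copies is among the counted genes. Copies under other names were not looked for, so these are not full numbers of copies. The sources used here do not say how reads shared between copies were treated, and its part was not tested. The levels of Gapdh and Pgk1 are therefore uncertain, and no difference below is read from either gene. Their few counts do enter the summed shares, the likeness to the summed members and the fits with no filter on low counts. Ldha and Aldoa are compared below, with the part of their copies also not tested.

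The first question of the design is how old and young skin differ. No member was called for age over all wells. Sums of all wells per animal (3 old, 3 young) were compared with the quasi-likelihood test of edgeR, and the percent called over all genes tested was 0. Before adjustment 25 genes had p under 0.05 in edgeR and 6 in DESeq2, which also called 0. The default filter left 3 members: Slc2a1 at 0.16 (SE 0.409) on the log2 scale of old over young, Hk1 at -0.20 (SE 0.338) and Aldoa at -0.13 (SE 0.644), each with an edgeR adjusted p of 0.998. In such sums fewer cells of a type and less RNA per cell cannot be told apart. With a mean of at least 20 CPM over the animals in place of the default filter, 8 members entered the same test. There 45 of 6714 genes were called and no member was, the lowest adjusted p being 0.301 in edgeR for Hk2 at 1.45 (SE 0.510). The 10 members had a summed share of counts of 0.188% ± 0.0863 in the old (SD, n = 3) and 0.189% ± 0.0371 in the young (SD, n = 3), and the groups overlapped.

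Slc2a1 was 0, 404 and 314 CPM in P57, P59 and P60 and 170, 465.6 and 404 CPM in P662, P722 and P758. The old and the young values overlapped, and the 0 of P57 allows up to 574 CPM at its depth. Hk1 had 0, 243 and 280 CPM in the young and 198, 310 and 229 CPM in the old animals. Aldoa, at 1721, 485 and 277 CPM in the young and 241, 854 and 413 CPM in the old, had its highest value in the shallowest library, from 9 counts. Its range within each age was wider than the difference between the ages.

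Tpi1 was the member whose animals parted by age: 191, 485 and 206 CPM in P57, P59 and P60, against 99.2, 155 and 191 CPM in P662, P722 and P758. The highest old and the lowest young value nearly met, and the latter is a single count. Of 6714 genes with a mean of at least 20 CPM, 7.73% had no overlap between the ages, and of all 15873 genes with a count 3.48%. Tpi1's fitted log2 difference in these genes was -0.42 (SE 0.636, adjusted p = 1.00). Pkm had 169 ± 19.4 CPM in young and 200.3 ± 50.8 CPM in old animals (SD, n = 3 each). Eno1 had 52.7 ± 45.6 against 86.2 ± 9.21 CPM and Hk2 60.3 ± 88.3 against 96.1 ± 54.5 CPM. For Ldha the SD of the old animals, 257 ± 254 CPM against 70.6 ± 66.0 CPM in the young, was nearly as large as their mean. None of these differences was larger than the spread between animals.

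**Figure D1:**
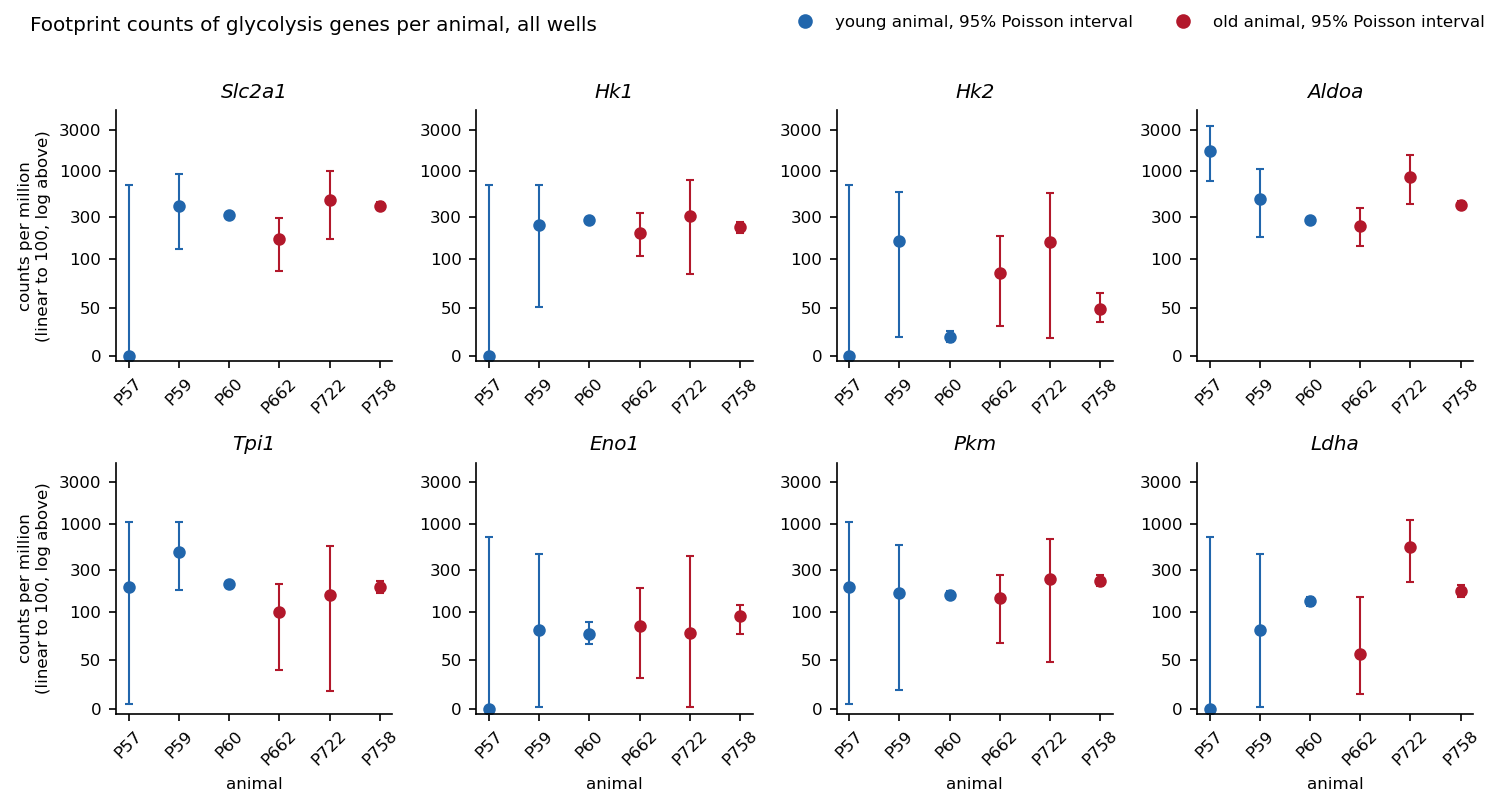
CPM in each animal, over all kept wells, of the 8 members with more than 10 counts in all; the axis is linear up to 100 and logarithmic above, young animals are blue, old ones red, and bars are exact 95% Poisson intervals that cover counting error only. The bars of P57, P59 and P722 are wide, and old and young values overlap in every panel but that of Tpi1, where P57 at 191 CPM and P758 at 191 CPM nearly meet.

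In sums of basal and spinous wells per animal (5 animals with at least 5 wells of each, P57 left out), the transporter Slc2a1 was far lower in spinous wells, and Tpi1 was moderately lower. Of the 4 members tested, these 2 were called and 2 were not, beside 51.8% of 766 genes called, 28.2% lower and 23.6% higher, so that the share is near the background. Slc2a1 was 716, 476, 255, 1033 and 558 CPM in the basal wells of P59, P60, P662, P722 and P758. In spinous wells it was 212, 88.0, 169, 0 and 184 CPM in the same order. It was lower in 5 of 5 animals, but only P60 and P758 had enough counts to place it. P59 had 3 counts in basal and 1 in spinous wells, P662 had 5 and 6, and their intervals overlapped between the classes. The 0 of P722 comes from 2940 counts and allows up to 1020 CPM. The fitted log2 difference came to -1.88 (SE 0.233), with an adjusted p of 7.54e-15 in edgeR. Over the 12 alternative settings in which it could be tested it stayed between -2.32 and -1.73, with adjusted p at most 4.37e-05, but without P60 or without P758 too few counts were left to test it.

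The lower Slc2a1 of spinous wells was seen on each of the 5 deep plates. Plates young 1, young 3 and young 9 had 424, 557 and 423 CPM in basal and 40.2, 109 and 143 CPM in spinous wells. Plates old 2 and old 4 had 526.4 and 576 CPM in basal and 127 and 223 CPM in spinous wells. No spinous sum of a plate reached a basal one, but single clusters of the classes overlapped. The spinous cluster led by Skint6 had 98.4 CPM (58.3 to 156) in P60 and 286 CPM (201 to 394) in P758. The basal cluster led by mt-Nd2 had 162 CPM (105 to 238) and 249 CPM (145 to 399). The spinous cluster led by Krt77 had 82.1 and 111 CPM. Hk1, Aldoa and Tpi1 were also lower in spinous than in basal wells on all 5 plates, as were 20.2% of 6817 genes. Slc2a1 had 488 counts in P60 basal and 44 in P60 spinous wells, a ratio of 0.185 (95% exact interval 0.133 to 0.252), and the ratio in P758 was 0.330 (0.240 to 0.448). Of the 488 counts, 364 came from the deep basal cluster led by Igfbp3, with 117 of the 389 basal wells of P60. That cluster held 598683 of their 1025359 counts and so weighs most in the P60 ratio. The basal clusters led by mt-Nd2 and by Thbs1 had 162 and 208 CPM in P60, nearer to the spinous 88.0 CPM. Wells thinned to 500 counts each, to set aside depth, gave Slc2a1 at 362 against 97.9 CPM in P60 and 418 against 222 CPM in P758. Thinned Tpi1 had 189 against 168 CPM in P60 but 153 against 159 CPM in P758. Hk1 had 281 against 266 CPM and 173 against 222 CPM, so that neither was lower in both animals. Thinned Aldoa was lower in both, at 286 against 196 CPM and 418 against 302 CPM. The intervals of Tpi1, Hk1 and Aldoa overlapped between the classes. A count of Slc2a1 was found in 36.3% of basal and 18.0% of spinous wells, at median depths of 1174.5 and 1275 counts per well.

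Tpi1 was 477, 221, 0, 344 and 197 CPM in the basal wells of P59, P60, P662, P722 and P758. It was 424, 130, 84.6, 0 and 119 CPM in their spinous wells. It was lower in 4 of 5 animals and on all 5 deep plates, but P59 had 2 counts in each class and the 0 of P722 allows up to 1020 CPM, so that these animals do not place it. The log2 difference came to -0.61 (SE 0.266), with an adjusted p of 0.0411 in edgeR. The call was lost in DESeq2 (adjusted p = 0.238), with no filter on low counts (0.321), without wells of clusters led by immediate early genes (0.0799), at a mean of at least 20 CPM (0.0990), without P59 (0.102) and without P722 (0.0730). Aldoa, at -0.21 (SE 0.214, adjusted p = 0.444), and Pkm, at -0.23 (SE 0.257, adjusted p = 0.479), did not pass. At a mean of at least 20 CPM, where 20.1% of 6449 genes were called and 10.2% were called higher, Slc2a1 was the only one of 8 members called. There Hk1 had -0.23, Ldha -0.10, Hk2 -0.36 and Eno1 0.51, the only positive value. Beside these, immediate early genes, which rise when tissue is dissociated, took 0.723% of counts in basal and 0.330% in spinous wells of P60, and 2.49% and 1.16% in P758.

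**Figure D2:**
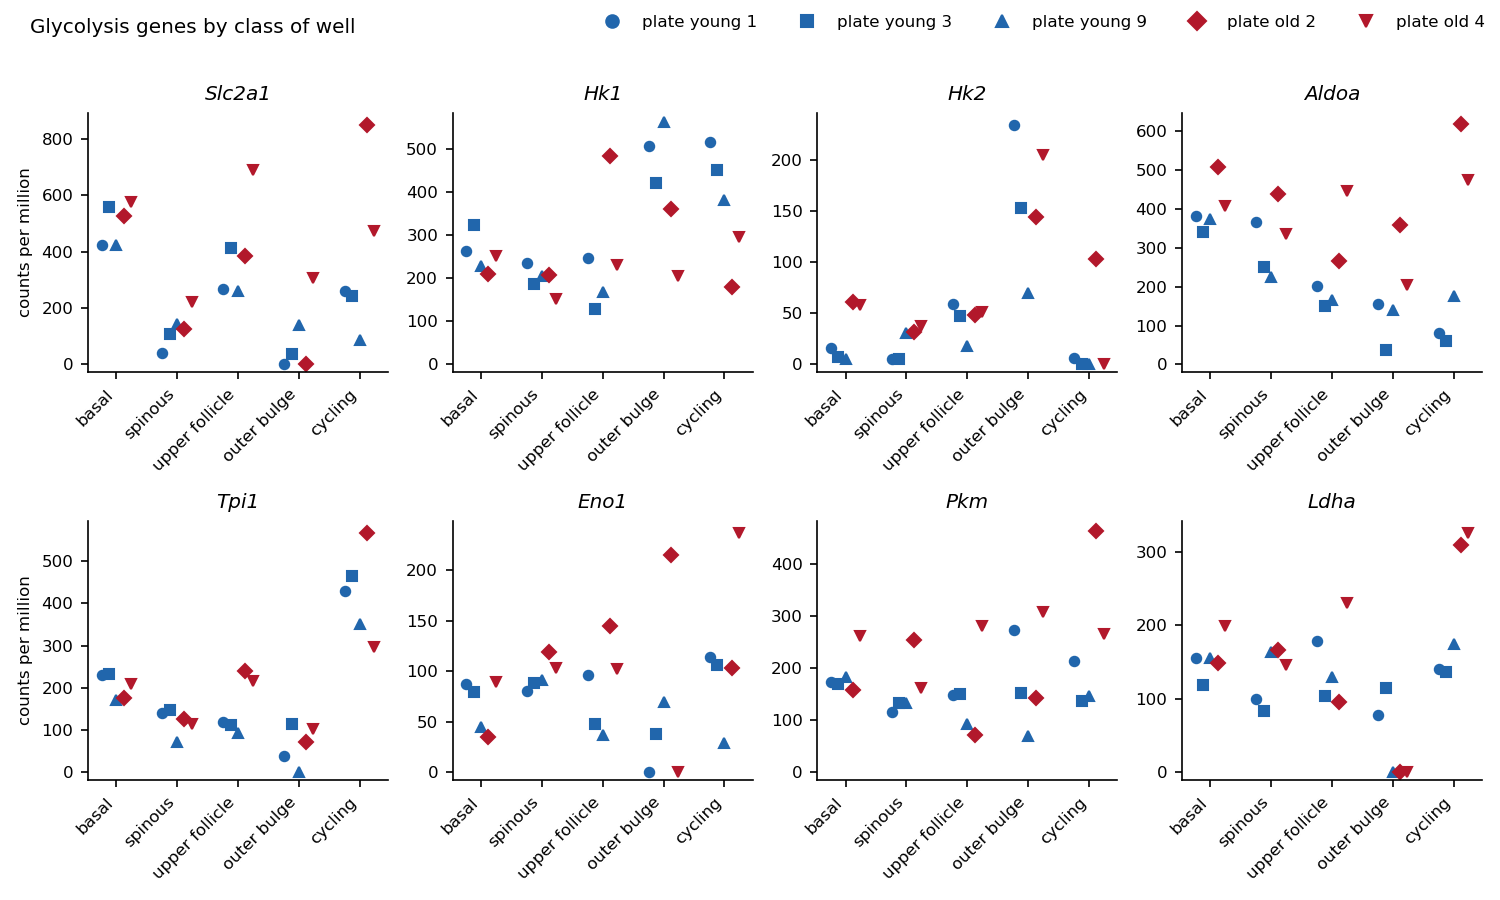
CPM of 8 members in each class of wells (x axis) on the 5 deep plates; blue symbols are the 3 plates of young P60 and red symbols the 2 plates of old P758, each point being the sum of all wells of that class on a plate. Slc2a1 is lower in spinous than in basal wells on all 5 plates, Hk2 is higher in outer bulge than in basal wells on all 5, and Tpi1 is higher in cycling than in basal wells on all 5.

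Outer bulge wells, marked by Cd34 and Postn and regarded as the resting stem cells of the follicle, had lower Slc2a1 and Aldoa than basal wells by the default filter. Their Slc2a1 had an interval that overlapped that of spinous wells in P60 (9.36 to 133 against 64.0 to 118 CPM) and in P758 (26.1 to 370 against 139 to 238 CPM), so that these classes have no order. In the 3 animals with at least 5 such wells (P60, P662 and P758), Slc2a1 was 476, 255 and 558 CPM in basal and 45.4, 0 and 127 CPM in outer bulge wells. The outer bulge values rest on 3, 0 and 3 counts, those of P758 from a single well, and the 0 of P662 allows up to 2318 CPM, so that P662 does not place Slc2a1 below basal wells. On the log2 scale Slc2a1 was lower, at -2.89 (SE 0.613, adjusted p = 2.21e-05 in edgeR), and with the 20 CPM filter the call was lost without P60 (-2.75, adjusted p = 0.999) or without P758 (-3.64, adjusted p = 0.999). Over 13 alternative settings the difference lay between -3.64 and -2.75. The ratio to basal wells was 0.0954 (95% exact interval 0.0196 to 0.280) in P60 and 0.227 (0.0464 to 0.675) in P758. Aldoa was also called, at -1.31 (SE 0.512, adjusted p = 0.0419), with 364, 255 and 446 CPM in basal and 106, 0 and 296 CPM in outer bulge wells, the 0 of P662 having the same limit. The call on Aldoa was lost in 6 of the 9 planned settings that tested it and held in 3. Hk1 had 0.68 (SE 0.413, adjusted p = 0.236) and Pkm 0.06 (SE 0.494, adjusted p = 0.955). In this comparison 26.9% of 1106 genes were called, 12.9% lower and 13.9% higher, and 2 of the 4 members tested.

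Hk2, too low for the default filter, was higher in outer bulge wells under a wider filter. It had 10.7, 102 and 59.04 CPM in the basal wells of P60, P662 and P758 and 166, 0 and 169 CPM in their outer bulge wells. P662 had no count there in 1294, which allows up to 2318 CPM. On the deep plates Hk2 was 15.8, 7.46 and 5.56 CPM in basal wells of the young plates 1, 3 and 9, against 234, 153 and 70.1 CPM in outer bulge wells. Plates old 2 and old 4 had 61.4 and 57.6 CPM against 144 and 205 CPM. The outer bulge value was the higher one on all 5 plates, as for 5.72% of 7201 genes. It rests on 11 counts in 9 wells of P60 and 4 counts in 2 wells of P758, with ratios to basal wells of 15.5 (6.10 to 39.5) and 2.86 (0.704 to 8.68). At a mean of at least 20 CPM the fitted difference was 2.36 (SE 0.653), with an adjusted p of 0.00879 in edgeR, where 6.59% of 6664 genes were called and 3.68% were called higher. With that filter the value was 3.09 without clusters led by immediate early genes (adjusted p = 0.000615) and 2.63 without P662 (0.0139). It was 0.77 without P60 (adjusted p = 0.999) and 3.42 without P758 (0.0604), and those 2 fits called no member.

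Besides Slc2a1, the members Aldoa, Tpi1 and Ldha were lower in outer bulge than in basal wells on all 5 deep plates, as were 11.7% of 7201 genes. Several of these are zeros that the depth cannot place below basal wells: Ldha on old 2, old 4 and young 9, where 0 allows up to 215, 307 and 210.3 CPM, and Tpi1 on young 9. Hk1 was higher on 4 of 5. Tpi1 had 2 to 4 counts in each deep animal and was 60.5 and 84.4 CPM against 221 and 197 CPM. Ldha had 5 counts in P60 and 0 in P758, where the total of 23688 counts allows up to 127 CPM beside 180 CPM in basal wells. At a mean of at least 20 CPM neither was called (adjusted p = 0.160 and 0.248 in edgeR), while without P662 Tpi1 was called by the default filter (-1.70, adjusted p = 0.0408). Outer bulge wells had a lower median depth than basal ones, 589.5 counts against 1174.5. After thinning to 500 counts, 1 count of Slc2a1 and 4 of Hk2 were left in P60 and 0 of either in P758.

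**Figure D3:**
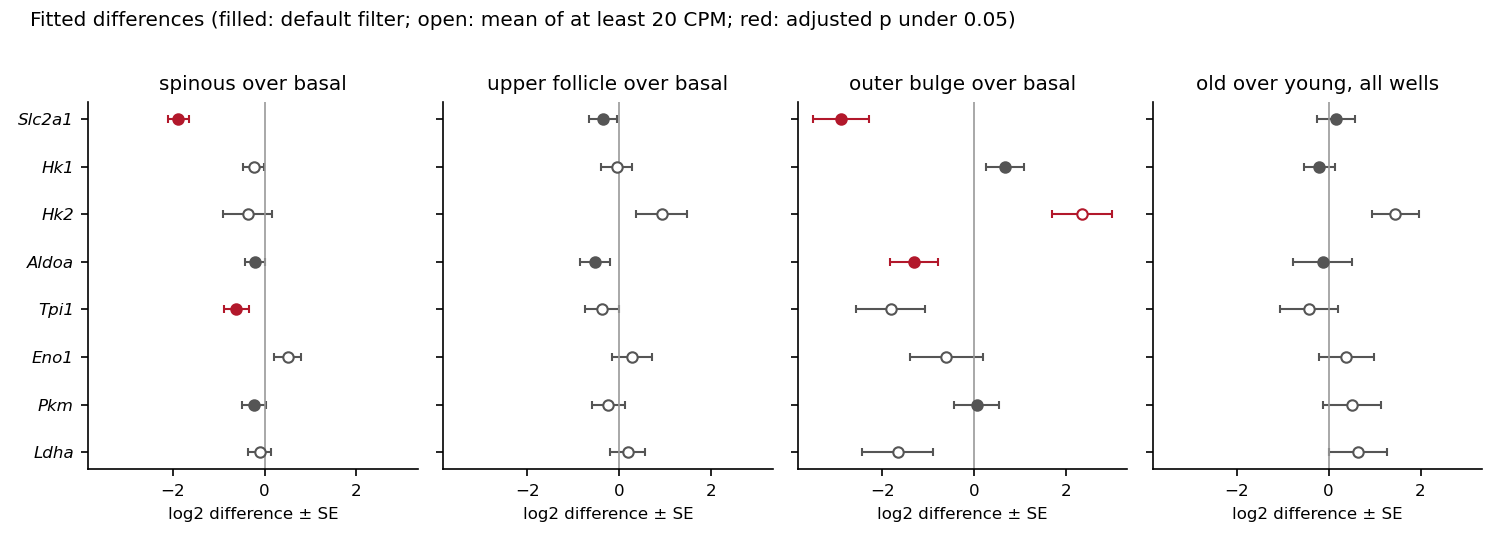
Fitted log2 differences with their SE (x axis) for 8 members in 4 comparisons; filled symbols are from the default filter on low counts, open ones from a mean of at least 20 CPM where the default filter left the gene out, and red marks an adjusted p under 0.05. Slc2a1 lies at -1.88 in spinous and -2.89 in outer bulge wells, Hk2 at 2.36 in outer bulge wells, and no member is red in the comparison of old with young animals.

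In upper follicle wells no member was called. Of 444 genes 34.7% were, 19.1% lower and 15.5% higher, and only Slc2a1 and Aldoa of the members could be tested (5 animals). Slc2a1 was 801, 325, 102, 0 and 584 CPM in P59, P60, P662, P722 and P758, a log2 difference over basal wells of -0.35 (SE 0.298, adjusted p = 0.417). Aldoa was 801, 175, 102, 1392 and 384 CPM, a difference of -0.53 (SE 0.333, adjusted p = 0.240). The shallow animals gave 0 to 4 counts for these values. In P60 Aldoa had 0.482 (0.356 to 0.641) and Tpi1 0.504 (0.342 to 0.721) of the basal level, while in P758 they had 0.861 (0.602 to 1.21) and 1.14 (0.699 to 1.83). Hk2 had 4.45 (1.91 to 10.7) times the basal level in P60 and 0.848 (0.276 to 2.23) times in P758. Its P60 value rests on 15 counts in 7 wells, with 5 of these counts in 1 well. After thinning to 500 counts per well it was not higher in P60, at 19.2 CPM from 1 count against 27.0 CPM in basal wells. The class held granular transcripts in P758 (1.12% of its counts against 0.0248% in P60). Their part in these differences between the 2 animals was not tested. A single well held 26 of the 70 counts of Slc2a1 and 12 of the 27 of Tpi1 in P758. No member was higher on all 5 deep plates, beside 8.82% of 7141 genes, or lower on all 5, beside 13.3%.

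Cycling wells, of a cluster led by replication histones and another led by mitotic genes, numbered at least 5 in P60 and P758 only, so no test was made and their values stand as they are. Tpi1 was the member that was higher than in basal wells on all 5 deep plates, as were 9.05% of 7007 genes. No member was lower on all 5, beside 19.0% of these genes. It was 429, 465 and 351 CPM in cycling wells of plates young 1, 3 and 9 and 566 and 296 CPM on plates old 2 and old 4. Basal wells of the same plates had 230, 234, 173, 175 and 210 CPM, below each of these. The ratio was 1.97 (95% exact interval 1.58 to 2.44) in P60, from 137 counts in 28 wells, and 2.24 (1.41 to 3.49) in P758, from 32 counts in 14 wells. The mitotic cluster had 587 CPM in P60 and 617 CPM in P758, and the histone-led one 379 and 255 CPM. Hk1 was 516, 449 and 380 CPM in young cycling wells, above the basal 264, 323 and 228 CPM, and 180 and 296 CPM in old ones, beside 211 and 251 CPM. Eno1 was higher in 4 of the 5 plates and so was Ldha.

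Classes were also compared between P758 and P60. The share of all genes whose interval leaves out 1 was not computed, so the ratios of P758 over P60 below only describe the members. In basal wells Hk2 had 5.50 (2.46 to 12.9). In spinous wells Slc2a1 had 2.09 (1.38 to 3.17), Hk2 3.55 (1.14 to 13.0) and Pkm 1.59 (1.10 to 2.29). The interval of Aldoa began at 1.00 in both classes, and the other intervals in them held 1. In outer bulge wells every interval held 1. In upper follicle wells Slc2a1 had 1.80 (1.31 to 2.46), Hk1 1.72 (1.11 to 2.63), Aldoa 2.19 (1.45 to 3.30) and Tpi1 2.02 (1.18 to 3.44). There the intervals of Hk2, Eno1, Pkm and Ldha held 1. That class also held granular transcripts in P758, and their part was not tested. In cycling wells Eno1 had 1.62 (0.762 to 3.24). Aldoa was 80.4, 60.9 and 175 CPM on the young plates, below all basal values, and 618 and 474 CPM on the old plates, above the basal values of the same plates. P758 over P60 gave a ratio of 6.67 (95% exact interval 3.97 to 11.4) in cycling and of 1.23 (1.00 to 1.5) in basal wells. Slc2a1 was 261, 244 and 87.7 CPM on the young and 849 and 474 CPM on the old plates, a ratio of 2.87 (1.96 to 4.17). Pkm had 2.13 (1.29 to 3.43), Ldha 2.21 (1.28 to 3.74) and Hk2, from 4 counts and 1, had 17.3 (1.72 to 854). Hk1 went the other way at 0.494 (0.280 to 0.819), and Tpi1 had 1.01 (0.666 to 1.5). With 1 animal per age these are differences between these animals, not between the ages. The cycling wells of P758 were shallower, with a median of 687 counts per well against 2640 in P60. They held more spinous transcripts, 1.17% against 0.114% of counts, more Langerhans transcripts, 0.167% against 0.00127%, and more immediate early ones, 1.36% against 0.378%, and more came from the mitotic cluster, 28 of 39 wells against 16 of 51. The part of these in the differences was not tested.

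Slc2a1 also varied among the clusters of the basal class. The deep cluster led by Igfbp3 and Smoc2 had 608 CPM in P60 and 680 CPM in P758, and the cluster led by immediate early genes such as Fos and Nr4a1 had 539 and 661.7 CPM. The cluster led by the mitochondrial transcript mt-Nd2 had 162 and 249 CPM. The cluster led by Thbs1 and Bhlhe40 had 208 and 534 CPM. The order of the first and the mt-Nd2 cluster was the same in both animals, with intervals that did not overlap (547 to 674 against 105 to 238 CPM in P60). Hk1 stayed between 189 and 321 CPM in these clusters in both animals, and Hk2 was at 112 CPM (59.5 to 191) in the immediate early cluster of P758, beside 24.7 to 29.3 CPM in its other basal clusters. Those rest on 1 or 2 counts each, with intervals that reach 89.3 to 142 CPM, and in P60 the immediate early cluster had 7.81 CPM from 1 count. Clusters were found from the same wells, so these values are a description.

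**Figure D4:**
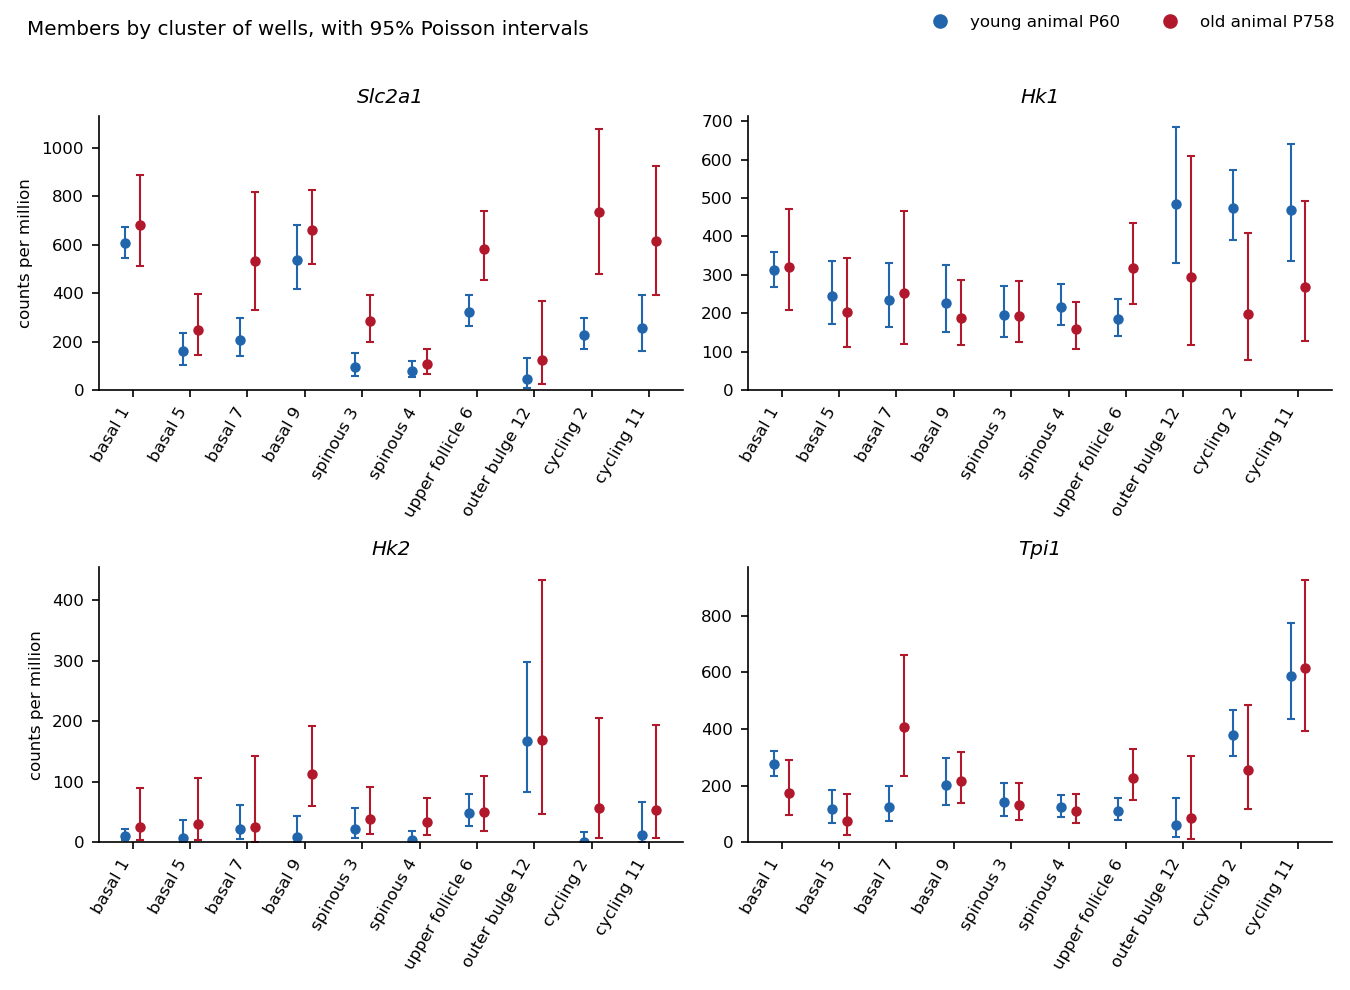
CPM of Slc2a1, Hk1, Hk2 and Tpi1 in the wells of each named cluster (x axis, class and cluster number) in P60 (blue) and P758 (red), with exact 95% Poisson intervals that cover counting error only. Slc2a1 runs from 162 to 608 CPM among the basal clusters of P60, and Hk2 is at 166 and 169 CPM in the outer bulge cluster of the 2 animals.

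Age was also compared within classes. In basal wells of 3 old and 2 young animals none of 307 genes passed in edgeR, and 8 had p under 0.05 before adjustment. Slc2a1 had 0.03 (SE 0.481) and Aldoa 0.01 (SE 0.562) as log2 of old over young. In spinous wells none of 730 passed in edgeR, 15 had p under 0.05 before adjustment, and Aldoa, the only member tested, had 0.30 (adjusted p = 0.990). The percent called was 0 in both. The difference between the 2 age effects was tested as an interaction, in which none of 766 genes passed in edgeR and 26 had p under 0.05 before adjustment, a percent called of 0. Slc2a1, whose level in spinous wells was 2.09 times (1.38 to 3.17) as high in P758 as in P60, had an interaction of 0.78 (SE 0.486, adjusted p = 0.999).

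Hk2 was too low for these tests. It had 0 and 10.7 CPM in the basal wells of the young P59 and P60 and 102, 172 and 59.04 CPM in those of the old P662, P722 and P758. The old values rest on 2, 1 and 18 counts, the young on 0 and 11, and the 0 of P59 allows up to 716 CPM, so that the parting of the groups is one of P60 from P758. At a mean of at least 20 CPM it was among the 0.252% of 5951 genes that edgeR called, all of them higher. It passed that filter only through the old animals, its young values being under 20 CPM, so the call supports no difference with age. It was also lost without clusters led by immediate early genes, without P60 and without P758 (adjusted p = 1.00, 0.663 and 0.999). Immediate early genes took 0.723% of basal counts in P60 and 3.56% in P59, and 4.94%, 0.757% and 2.49% in P662, P722 and P758.

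Other genes of the pathway, from lists of the remaining glycolytic enzymes and transporters, of pyruvate and lactate handling, of the pentose phosphate pathway, of glycogen and of the HIF and MYC regulators, were mostly too low to test. Of 31 other glycolytic genes only Pfkp, the platelet-type phosphofructokinase that commits sugar to glycolysis, was tested. It was lower in spinous wells, at -0.84 (SE 0.199, edgeR adjusted p = 7.72e-05) and in upper follicle wells, at -1.31 (SE 0.277, adjusted p = 1.66e-05), while in outer bulge wells it had -0.72 (adjusted p = 0.224). Hif1a, the oxygen-sensitive subunit of HIF-1, was 1 of 22 regulators and targets tested in spinous wells and was lower, at -0.94 (SE 0.222, adjusted p = 7.07e-05). In outer bulge wells Hif1a had -0.93 (adjusted p = 0.145) and Myc -0.97 (adjusted p = 0.236). Of 18 pyruvate and lactate genes Bsg, the chaperone of lactate transporters, was tested and had -0.07 in spinous and 0.18 in outer bulge wells. Of 7 pentose phosphate genes Tkt, the transketolase, had -0.04 and -0.98 (adjusted p = 0.908 and 0.124). None of the 11 glycogen genes could be tested. Between the ages none of these lists had a called gene.

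The genes whose level ran most like that of the summed members, over 14 sums of a class and an animal with at least 5000 counts and among 2177 genes, were Pdia6 (r = 0.83), Rnase4 (0.82), Pfn1 (0.81), Tnfrsf19 (0.78) and Ddx39b (0.76). For Slc2a1 alone the first was Krt14 (0.82), the basal keratin. The sums share animals, libraries and depth, and these correlations describe them only.

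The plates outside the comparisons were read in the same way. On the nuclease plate of P758, with 128007 counts, Slc2a1 had 320 CPM (230 to 435), Aldoa 422 (317 to 550), Hk2 62.5 (27.0 to 123) and Tpi1 156 CPM (95.4 to 241), beside 404, 413, 48.0 and 191 CPM in the other wells of that animal. On the Sca-1-negative plate, with 17377 counts, the members had 12 counts in all, 0.0691% of the total (exact 95% interval 0.0357 to 0.121). The share was 0.146% in P60 and 0.178% in P758, but 0.108% in the shallow P662, which lies inside that interval. Slc2a1 had 1 count there, and 6 of the 12 were of Aldoa.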

How the data were processed

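The deposited tables give counts of footprint reads per gene and well as whole numbers, 1 table per plate. The submitters' processing notes name featureCounts, UMI-tools, STAR, Bowtie2 and fastp, and the build GRCm38.p6. The sources used here give neither versions nor settings. Wells of at least 100 counts were kept. The animal is the replicate, on the assumption that plates sharing an age and a postnatal day hold cells of a single mouse. The edgeR p-values weigh differences against a spread between these animals that is estimated with the help of all genes tested. With 2 to 4 residual degrees of freedom, they are no measure of the spread of a single gene, least of all one with few counts. Of 20 pairs of plates compared 0 were identical, with chi-square over its degrees of freedom at 1.47 or more.

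Wells were clustered in scanpy 1.11.5 (1500 variable genes, centred per plate, 15 components, 15 neighbours, Leiden resolution 1) without any pathway gene. A cluster took the name of its best marker list at a mean log2 ratio of at least 0.25 with at least 3 markers higher and either a marker among its 10 leading genes or at least 8 markers higher; these thresholds were set after the clusters were seen. No doublet caller was run, since 1 cell was sorted per well. The upper follicle cluster scored 2.55 for its list and 2.34 for the granular list.

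Counts were summed per animal, or per animal and class with at least 5 wells, and tested in edgeR 4.0.16 (R 4.3.3; TMM, filterByExpr, robust quasi-likelihood, Benjamini-Hochberg over all genes tested, threshold 0.05), with the animal as a block between classes. A class was tested with at least 3 animals. The SE is the absolute log2 difference over the root of the F statistic. Alternatives included DESeq2 1.42.0 and limma-voom 3.58.1 on plates. The tests were tested on simulated data. Intervals are exact at 95%, floors are 3 counts, and both cover counting error only. Wells had 0 to few counts of a member, so shares of wells were set beside median depths.

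Genes named are all 10 members, genes of the other lists that pass in a comparison or are among the 5 with the highest mean of their list, and the 5 most like the summed members by Pearson correlation. Krt14, the lactate transporters and the upper follicle markers were named after their values were seen. The members and lists were chosen with earlier results of these data known. The Sca-1-negative and nuclease plates entered no test. Figures were drawn with matplotlib 3.10.9.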

Additional observations from a re-analysis of the deposited data

Results flagged for a closer look

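Among 22 groups of plates of one age looked at, 8 held a plate that stood far from the others. No rate expected by chance can be set beside this, since the plates differ widely in depth and some share an animal. A shallow plate can be marked through counting error alone. On the shallow young plates, Hk1 was 0 CPM on plate young 10, where the others had 243 to 292 CPM, although that 0 allows up to 574 CPM and so does not place the plate below them. Aldoa was 1721 CPM there, where the others reached 485 CPM. Plate young 8 had Hk2 at 162 CPM against at most 24.5 CPM on the others and Tpi1 at 485 CPM against at most 223 CPM. These values rest on 0 to 9 counts. Among old plates, Pkm was low on plate old 11 at 81.6 CPM, where the others had 225 to 279 CPM, and Ldha was high on plate old 12 at 543 CPM, where the others had 40.8 to 184 CPM. Pgk1 was 1.88 CPM on plate old 4 and 2.34 CPM on plate young 9, each a single count, and 0 elsewhere in its age; its level is uncertain and nothing is read from these.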

How the results depend on the processing

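Each count here is of members called by edgeR unless another tool is named. In spinous over basal wells 2 members were called, and 1 in DESeq2, with no filter on low counts, at a mean of at least 20 CPM, without immediate early clusters and at Leiden resolution 0.5. Leaving out an animal gave 0 to 2, with 0 tested without P60 or without P758. In outer bulge over basal wells 2 were called, and 1 without immediate early clusters, at Leiden resolution 0.5 and when adjusted over genes not used in clustering. Leaving out an animal gave 0 to 4, by either filter, with 4 without P662. For age in basal wells 0 were called, and 1 at a mean of at least 20 CPM, which is Hk2 and passed that filter only through the old animals, so that it supports no difference; there leaving out an animal gave 0 to 1. The cause of these changes was not tested. No member was called for age over all wells, age in spinous wells, the interaction or upper follicle wells under any alternative run, and no call reversed. The settings that join the 20 CPM filter with a left-out animal or cluster, thinning to 500 counts and the likeness to Slc2a1 were added after seeing the data. Clusters not centred per plate gave no value for the comparisons of classes, and at least 500 counts per well gave none for outer bulge wells, age within a class or the interaction. Calls over all genes moved with the filter. They went, with no filter and at a mean of at least 20 CPM, from 0 to 111 and 45 for age over all wells, from 397 to 1407 and 1298 for spinous, from 154 to 675 and 690 for upper follicle, from 297 to 333 and 439 for outer bulge, from 0 to 22 and 15 for age in basal and from 0 to 8 and 3 for age in spinous wells. Leaving out an animal gave 113 to 1307 for spinous, 40 to 469 for upper follicle and, by the default filter, 54 to 575 for outer bulge wells. Depth limits the shallow animals, whose class sums hold 0 to few counts of each member.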

Other observations

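Lactate is carried across the membrane by the monocarboxylate transporters Slc16a1 and Slc16a3, which were too low to test and were picked for this paragraph after their values were seen. Slc16a1 had 35.0 CPM in upper follicle wells of P60 and 242 CPM in those of P758, from 11 and 29 counts. In basal wells it had 1.95 and 42.6 CPM, and in spinous wells 2.00 and 12.9 CPM. Slc16a3, an exporter of lactate, had 19.5 and 59.04 CPM in basal wells of the same animals and 0 in their outer bulge wells. There 0 allows up to 45.4 CPM in P60 and 127 CPM in P758, which does not place Slc16a3 below basal wells. In cycling wells Slc16a3 was at 22.2 CPM in P60 and 193 CPM in P758, from 7 and 14 counts. The upper follicle class of P758 also held granular transcripts, and their part in its Slc16a1 value was not tested.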
